A study of Drosophila melanogaster with 3 samples.

Results

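The regions described here are 545 Trem-eGFP binding sites whose summits lie just downstream of a transcription start site (TSS). They were taken from 7477 reproducible peaks, those left by a filter on the irreproducible discovery rate (IDR). A summit was kept when it lay 1 to 500 bp downstream, in the direction of transcription, of the nearest protein-coding TSS of the Ensembl annotation, and when it was not enclosed by a divergent pair of TSSs at most 1000 bp apart. The 545 members were 7.29% of all IDR summits and 11.6% of the 4694 summits within 500 bp of a TSS. The other promoter summits were 2235 upstream stand-alone summits and 1914 head-to-head summits, which lie inside such a pair. The member summits belonged to 531 genes, which were 3.80% of 13968 protein-coding genes and 12.5% of the 4264 genes whose TSS was nearest to any promoter summit. A pair of members was found at 14 of these genes. The gene trem itself was not among them.

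All libraries came from a single group. They were made from embryos of Drosophila melanogaster collected 0 to 14 hours after laying, with both sexes pooled, from a stable transgenic line in which Trem carries eGFP at its C terminus. Chromatin was precipitated with an anti-GFP antibody according to the description of the samples, although another label gives trem as the antibody, and 3 biological replicates were sequenced with 1 technical replicate each. The line carries an insertion targeting trem, whole embryos mix all cell types, and libraries of untagged flies were not analysed here, so signal that any open promoter gives was not separated from binding by Trem.

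The core promoter is the stretch around a TSS where the general transcription machinery assembles. In flies, many promoters of constitutively active genes carry sequence elements such as the DNA replication-related element (DRE), bound by DREF, and motif 1, bound by M1BP, while others rely on a TATA box, an initiator or elements downstream of the start. Trem is a zinc finger protein of the ZAD family, known for its requirement in the formation of meiotic double-strand breaks.

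The strongest downstream summits shared 1 short element, and its sites are shown first because they separate the top of the members from the rest. The element was the 7-mer TGCCAAC, chosen after the data were seen as the 7-mer found near most of the 200 strongest IDR summits that were not members: 108 of these 200 held it within 50 bp, or 54.0%, against 5 of 400 windows placed 200 to 300 bp away, or 1.25%. Within 100 bp of the summit, on either strand, it occurred at 9 of the 12 members that rank among the 200 strongest IDR peaks. The following 6 of those 9 sites are from RefSeq's dm6 genome, written on the strand that carries the element, with the element in capitals.
mrva, chr3L:7328819-7328848, plus strand: aatggcggggcTGCCAACtcgctgtagagc
CrebB, chrX:18371254-18371283, plus strand: tgtgtgcgtgcTGCCAACttgtcgcaccaa
Hpr1, chr3R:5821403-5821432, plus strand: atcacgagtgcTGCCAACtcgttttggtta
stwl, chr3L:14409471-14409500, plus strand: atacatggcgcTGCCAACtcgcacacaact
GCC88, chr3R:11230561-11230590, plus strand: gcacgcgggccTGCCAACttgtcatgtttg
alph, chr3R:29592288-29592317, plus strand: gaaatcggtgcTGCCAACttgctggccact

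These 6 sites shared more than the capitals. All 6 had a C before the element and a T after it, and 5 of the 6 had GC before it. Over the 9 sites, the element lay on the strand of the gene in 3 and on the opposite strand in 6, so its orientation did not follow transcription. All 9 elements were downstream of the TSS, 7 to 471 bp into the gene, and 8 of the 9 were within 30 bp of the summit. CrebB was the exception, with its element 47 bp closer to the TSS than its summit.

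The summits at stwl and alph lay in introns, and the 121 bases around each are printed on the strand of the gene to show the element away from the core promoter. In the stwl window the capitals give the reverse complement of the element, since the gene runs on the minus strand.
stwl, chr3L:14409447-14409567, minus strand: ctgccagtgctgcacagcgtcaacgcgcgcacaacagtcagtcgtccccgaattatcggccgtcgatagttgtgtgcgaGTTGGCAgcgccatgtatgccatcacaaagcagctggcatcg
alph, chr3R:29592216-29592336, plus strand: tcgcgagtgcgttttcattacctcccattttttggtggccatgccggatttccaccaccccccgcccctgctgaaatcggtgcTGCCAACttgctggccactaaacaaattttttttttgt

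Weaker members carried other elements, or the 7-mer in another setting. The site below at Hr78, a nuclear receptor gene, ranked 1658 and holds the 7-mer without the T that follows it in the strong sites. At mTerf5, a gene of the mitochondrial transcription termination factor family, and at mRpL12, which encodes a subunit of the mitochondrial ribosome, the capitals mark the DRE, TATCGATA. At Surf1, which encodes an assembly factor of cytochrome c oxidase, they mark motif 1, GGTCACAC.
Hr78, chr3L:21497155-21497184, plus strand: accgttgctgcTGCCAACaaaagtgctact
mTerf5, chr3R:18223674-18223703, plus strand: aggtaatcaacTATCGATAcggccggcaaa
mRpL12, chr3L:8956803-8956832, plus strand: ccctggctgttTATCGATAaactgctcaca
Surf1, chr3L:6958302-6958331, minus strand: taacttcatgcGGTCACACcacttccgaat

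In the IDR list and in each replicate list, the 7-mer was far more frequent at the strongest downstream summits than at the rest. It was found near 9 of the 12 members ranked 1 to 200, or 75%, and near 24 of the other 533, or 4.50%. Of all 19276 protein-coding TSS positions, 4.17% held it in a window of the same length centred 34 bp downstream, the median position of the members. None of the 22 members ranked 201 to 748 held it. In the replicate lists, it was near 9 of 12 downstream summits ranked 1 to 200 in replicate 1, 11 of 15 in replicate 2 and 9 of 13 in replicate 3, and near 4.65%, 3.36% and 4.65% of those ranked lower. A downstream summit in a replicate can be a non-member of the IDR list. The replicate sets can therefore hold peaks the element was chosen on, and their counts are a description. The upstream stand-alone and head-to-head summits ranked 1 to 200 are among the peaks the element was chosen on, so their shares of 76.3% and 74.1% there are a description, and 3.68% and 3.27% of those ranked lower held it. Where weaker members held the 7-mer, it was within 30 bp of the summit in 8 of 24.

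Facts on the whole lists bear on all values below. Each replicate list held 30000 peaks with a signal value on its own scale, so peaks were compared by rank within a list, and each replicate was read through its 7477 strongest peaks. Signal values are the authors' own and the depth of the libraries is unknown. Replicate 1 stood apart: it had 464 downstream summits, against 908 in replicate 2 and 874 in replicate 3, a mean of 749 ± 247 (SD, n = 3), or 891 without replicate 1. Downstream summits were 17.9%, 29.2% and 28.4% of the stand-alone promoter summits in replicates 1, 2 and 3. Differences between classes were tested within replicates by an exact two-sided sign-flip permutation test, which with 3 replicates cannot give a p below 0.25, so none of the 63 comparisons could pass 0.05. The lowest Benjamini-Hochberg adjusted p in these exact tests was 0.358. Such p-values measure the spread between these samples only.

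Downstream summits crowded against the TSS. Their distances ran from 1 to 497 bp with a median of 34 bp and quartiles of 13 and 88 bp. The first 25 bp held 225 members, the next 25 bp held 104, the stretch of 51 to 100 bp held 93, that of 101 to 200 bp held 52, and the remaining 300 bp held 71. The upstream side had a different profile: 271 stand-alone summits lay 1 to 25 bp upstream, 332 at 26 to 50 bp and 556 at 51 to 100 bp. The rule's edges at the TSS ran through a continuous distribution, with 112 summits 1 to 10 bp downstream (median signal 215.4) and 93 at 0 to 9 bp upstream (median signal 241.6). At the far edge there were 2 summits in the last 10 bp inside it and 4 in the first 10 bp beyond. A further 171 summits were downstream of their nearest TSS but enclosed by a divergent pair, and are not members.

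**Figure D1:**
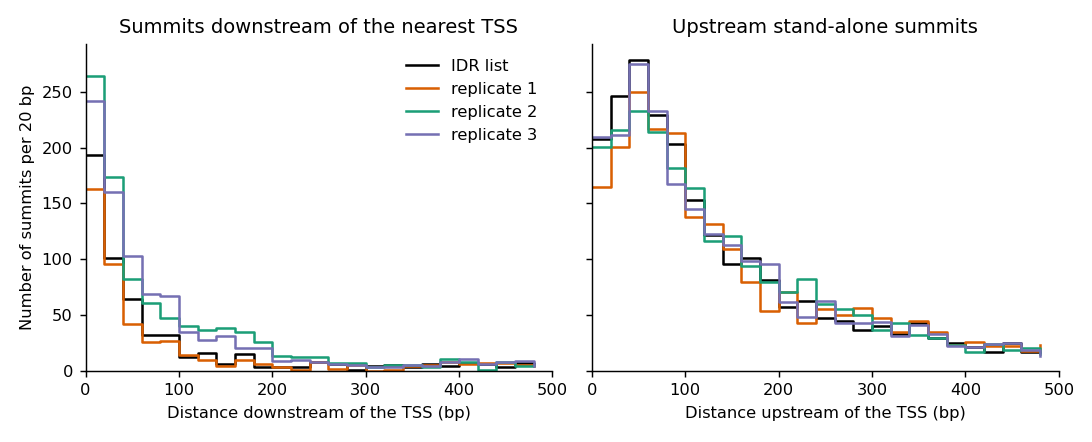
Number of summits per 20 bp against distance from the nearest TSS, for downstream summits (left) and upstream stand-alone summits (right), in the IDR list and in the 7477 strongest peaks of each replicate. Downstream counts were highest next to the TSS in all 4 lists, and replicates 2 and 3 had more of them than replicate 1.

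In ratio to replicate 1, replicates 2 and 3 had most downstream summits between 101 and 200 bp. In that stretch replicate 1 had 44, replicate 2 had 176 and replicate 3 had 134. In the first 25 bp the counts in replicates 1, 2 and 3 were 195, 314 and 290, at 26 to 50 bp they were 89, 167 and 168, at 51 to 100 bp 70, 147 and 183, and at 201 to 500 bp 66, 104 and 99. Of the downstream summits of replicates 1, 2 and 3, 84.3%, 60.7% and 61.6% had an IDR summit within 100 bp, where replicate 1 had the fewest such summits to match.

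For members close to the TSS, the side of the TSS was not resolved by single libraries. A replicate summit within 100 bp was found for 91.9% of members in replicate 1, 92.7% in replicate 2 and 94.9% in replicate 3, and 446 members, or 81.8%, were found in all 3. Among upstream stand-alone summits 88.5% were found in all 3, and among head-to-head summits 86.2%. The median shift between a member's IDR summit and its replicate summit was 19, 27 and 17 bp in replicates 1, 2 and 3, beside a median distance of 34 bp from the TSS. Of the members found, 75.6%, 80.2% and 82.0% were still downstream of the same TSS in replicates 1, 2 and 3, while 96.3%, 92.2% and 94.8% of the upstream stand-alone summits were still upstream of theirs. Upstream stand-alone summits lie farther out on the whole, with 1065 of them 101 to 500 bp from the TSS, where a match within 100 bp cannot change side. Since the IDR filter had itself drawn on the replicate lists, these shares are a description.

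The repeat of the side can be read only for members close to the TSS, since a match within 100 bp cannot carry a summit from beyond 100 bp across it. The share downstream in all 3 replicates was 16.9% of members 1 to 25 bp from the TSS, 41.3% at 26 to 50 bp and 66.7% at 51 to 100 bp, and the shift that a change of side needs grows over these bands. Over all 422 members at 1 to 100 bp, 338 were found in all 3 replicates and 143 were downstream in all 3. Of the 123 members beyond 100 bp, 108 were found in all 3, and their side follows from the matching.

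The strongest member was at HPS4, which encodes the fly counterpart of a subunit of the BLOC-3 complex of lysosome-related organelles. Its summit, at chromosome 2R position 17683598, was 24 bp downstream of the TSS in a UTR exon, with a signal of 7259 and rank 36 of 7477. In replicates 1, 2 and 3 it ranked 36, 37 and 29, with summits 25, 19 and 24 bp downstream. HPS4 lacked the 7-mer within 100 bp, as did Amun and ph-p among the 12 members ranked 1 to 200. The summit was also 99 bp upstream of Sema1b, a semaphorin gene on the opposite strand.

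The next members were sub, mrva and CrebB. At sub, which encodes a kinesin needed for meiotic spindle assembly, the summit was 16 bp downstream with a signal of 6190, and 16, 15 and -8 bp from the TSS in the 3 replicates, where a negative distance is upstream. At mrva it was 6 bp downstream with a signal of 5817, and -10, 13 and 2 bp in the replicates. The mrva summit was also 296 bp upstream of the TSS shared in position by CG42307 and mus312, a gene of meiotic crossover formation, so this peak cannot be given to 1 gene by position. CrebB encodes the cAMP response element-binding protein. Its summit was 54 bp downstream with a signal of 4984, and 53, 54 and 58 bp downstream in the replicates, so its side was the same in all 3.

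Of the members that followed in signal, 5 had their summits within 21 bp of the TSS. At Hpr1, a subunit gene of the THO complex of messenger RNA export, the signal was 4256 and the summit 21 bp downstream, and 21, 50 and 23 bp downstream in the replicates. At Gle1, which encodes a nuclear pore-associated export factor, the signal was 4142 and the summit 11 bp downstream, and 11, 3 and 24 bp in the replicates. CG12343, with a signal of 4916, had its summit at 8 bp, and at 8, 1 and -4 bp in the replicates. At GCC88, a golgin gene, the signal was 3102, the summit was at 5 bp, and the replicate summits were at 19, 0 and 20 bp. Amun, with a signal of 2589, had its summit at 19 bp and replicate summits at 33, -2 and 17 bp.

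Among the 12 strongest members, 3 lay far from the TSS. At stwl, a gene required for oocyte and germline stem cell maintenance, the intronic summit was 432 bp downstream with a signal of 3147, and 431, 444 and 431 bp downstream in the replicates. At alph, a gene for a protein phosphatase of the PP2C family, it was 445 bp downstream with a signal of 2552, and 446, 442 and 441 bp in the replicates. At ph-p, a Polycomb group gene, it was 448 bp downstream in a UTR exon with a signal of 1793, and 460, 416 and 440 bp in the replicates. The matched replicate summits of these 3 were all 416 bp or more from the TSS.

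The other members among the 20 strongest were Surf1 (signal 1662), CG9147, CG8320, tank, CG43116, mTerf5, CG31612 and TRAM (signal 818.5), the last of which encodes a membrane protein of protein translocation at the endoplasmic reticulum. Of the 20, 15 lay in UTR exons and 5 in introns, 14 were within 100 bp of the TSS, and 9 were also at most 500 bp upstream of a TSS of another gene. In all 3 replicates 14 of the 20 summits were downstream, and the other 6 were so in 2 replicates. Their ranks in the replicate lists ran from 29 to 676.

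**Figure D2:**
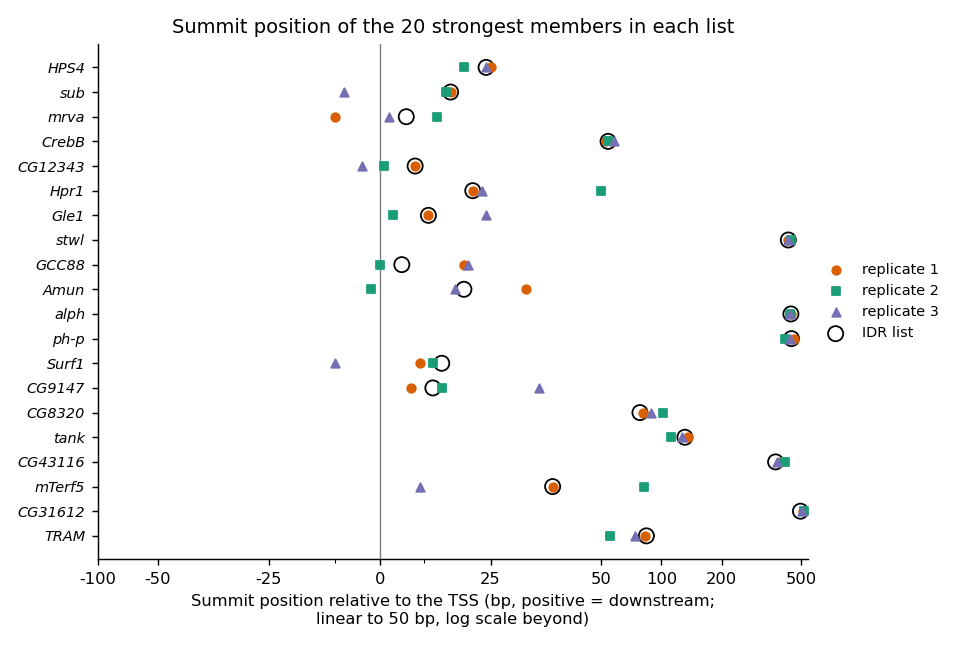
Summit position relative to the TSS, in bp, for the 20 strongest members in the IDR list (open circles) and in each replicate (filled symbols), with the strongest member at the top. Symbols left of the grey line are upstream of the TSS: sub, mrva, CG12343, Amun and Surf1 each have 1 such replicate, and GCC88 has a replicate summit at 0 bp.

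The 5 farthest members were CG31612 (497 bp), wde (495 bp), tou (488 bp), Ada2b (483 bp) and tay (481 bp), all in introns. Their genes include Ada2b, a subunit of histone acetyltransferase complexes, wde, a cofactor of histone H3 lysine 9 methylation, and tou, a chromatin remodelling protein. For Ada2b the replicate summits were 541, 385 and 580 bp downstream, and for CG31612 they were 509, 517 and 505 bp. The strongest members 1 bp from the TSS were RpL24, dom, CG11125, Tsr1 and CG9536, with signals of 457.4, 322.1, 260.8, 256.8 and 255.7. At RpL24, a ribosomal protein gene, the replicate summits were at -58, 2 and 18 bp, and at dom, a chromatin remodelling ATPase gene, they were at -9, 1 and -10 bp.

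Downstream summits were weaker than other promoter summits. Their signals had a median of 220.7, with a range of 144.6 to 7259, against medians of 286 for upstream stand-alone and 336 for head-to-head summits. As a rank within the IDR list, the median percentile was 35.8 for members, 54.6 for upstream stand-alone summits and 64.4 for head-to-head summits, where 100 is the strongest. In the replicates, the downstream median was lower than the upstream one by 17.7, 18.5 and 17.3 percentile points in replicates 1, 2 and 3, a mean difference of -17.8 ± 0.575 (SD, n = 3; exact sign-flip p = 0.25, the smallest possible). Against head-to-head summits the mean difference was -28.4 ± 1.12 percentile points (SD, n = 3; exact sign-flip p = 0.25). All 3 replicates gave the same direction. The difference from upstream stand-alone summits in the IDR list, -18.9 percentile points, was -7.73 with only the most upstream TSS of each gene and -5.98 in the strongest 50% of the list.

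The deficit held at equal distance from the TSS. At 1 to 25 bp, the median percentile was 34.6 downstream and 47.2 upstream in the IDR list, and the mean difference over replicates was -6.93 ± 0.281 (SD, n = 3; exact sign-flip p = 0.25). At 101 to 200 bp it was 38 downstream and 64.3 upstream, with a mean difference of -29.3 ± 2.74 (SD, n = 3; exact sign-flip p = 0.25). The sign was negative in each replicate in all 5 distance bands, which were chosen after the data were seen. Among members of the IDR list the median signal showed no steady order with distance, at 217.1 at 1 to 25 bp, 223 at 26 to 50 bp, 212 at 51 to 100 bp, 227 at 101 to 200 bp and 234 at 201 to 500 bp. The replicates differed in this. Over the same 5 bands the median percentile of downstream summits was 35.8, 34.8, 34.9, 38.7 and 38.5 in replicate 1, but 45.6, 38.5, 33.5, 32.3 and 31.9 in replicate 2 and 47.0, 36.8, 36.4, 30.1 and 32.0 in replicate 3, where the summits next to the TSS were the strongest.

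The share of downstream summits did not fall evenly with strength. None of the 20 strongest IDR peaks was a member, 5 of the strongest 100 were, and 12 of the strongest 200. As a percentage of stand-alone promoter summits, downstream summits made up 21.2% at ranks 101 to 200, 6.86% at ranks 749 to 1500 and 29.7% at ranks 6001 to 7477. In the weakest of these ranges the share was 27.2%, 42.5% and 41.4% in replicates 1, 2 and 3, and at ranks 749 to 1500 it was 8.30%, 14.2% and 15.4%. Of the 545 members, 368, or 67.5%, were in the weaker 50% of the IDR list.

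**Figure D3:**
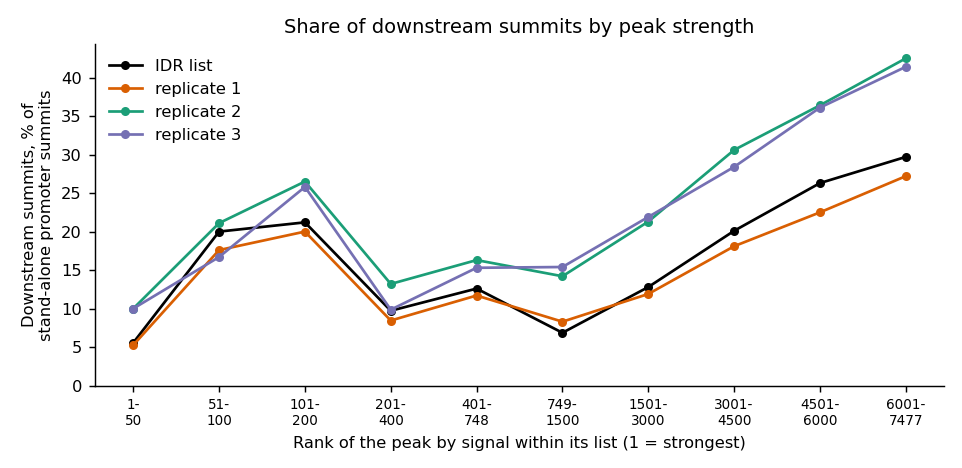
Downstream summits as a percentage of stand-alone promoter summits (downstream plus upstream) against rank by signal, in the IDR list and in the 7477 strongest peaks of each replicate. Each list had a small maximum at ranks 101 to 200 and its highest share among the weakest peaks, at 29.7% in the IDR list.

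Members were more often of the most common peak width than upstream peaks were. In the IDR list, 69.9% of members had the most common width of 410 bp, against 50.6% of upstream stand-alone and 40.6% of head-to-head peaks. The median width was the same for members and upstream summits in each replicate. The share at the most common width was higher for downstream summits by 17.8, 9.63 and 5.97 percentage points in replicates 1, 2 and 3, a mean of 11.1 ± 6.04 (SD, n = 3; exact sign-flip p = 0.25).

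Few members lay in coding sequence, and those beyond 100 bp were often intronic. By the annotation of their own gene, 461 summits, or 84.6%, fell in UTR exons, 68, or 12.5%, in introns and 16, or 2.94%, in coding exons. All bases 1 to 500 bp downstream of protein-coding TSSs were 38.3% UTR exon, 22.3% intron and 38.9% coding exon. At 1 to 50 bp, 324 of 329 members were in UTR exons and none was in an intron. UTR exons made up 94.2% of bases at 1 to 25 bp and 85.5% at 26 to 50 bp. At 101 to 500 bp, 61 of 123 members were intronic, or 49.6%, against 26.7% of bases, and 9 were in coding exons, against 44.7% of bases. At 201 to 500 bp, 64.8% of 71 members were intronic, against 29.7% of bases, and 6 were in coding exons, where 46.8% of bases lie. These are counts without a test, and a base counts once for each TSS it follows.

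**Figure D4:**
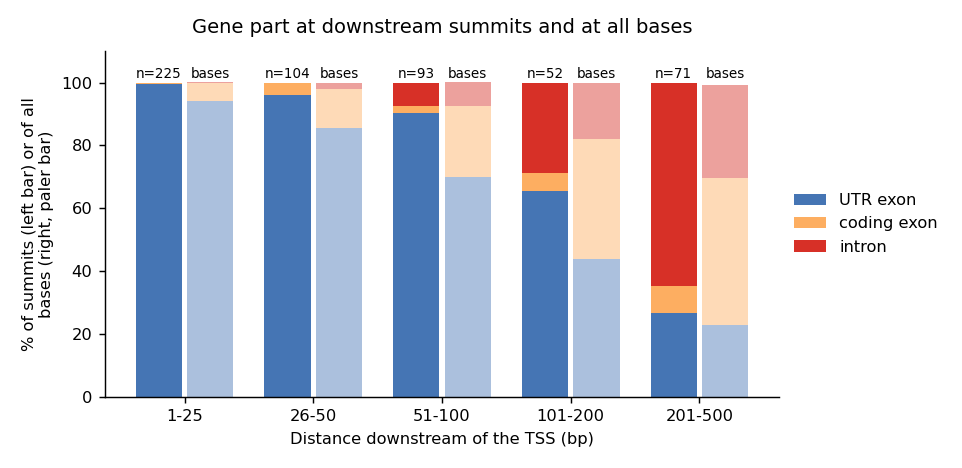
Share of member summits (left bars, with the number of members above) and of all bases downstream of protein-coding TSSs (right, paler bars) in UTR exons, coding exons and introns, by distance from the TSS in bp. Beyond 200 bp, introns held 64.8% of the summits and 29.7% of the bases.

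**Figure D5:**
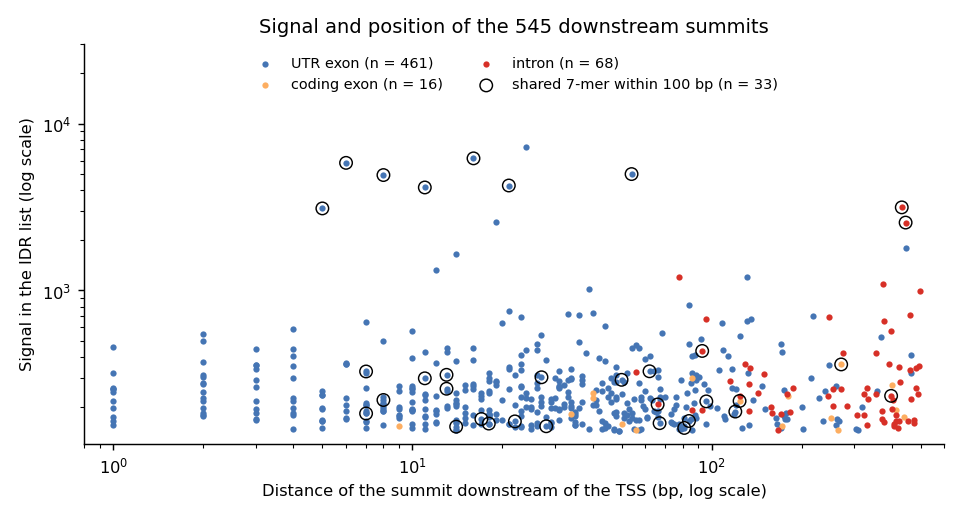
Signal of each of the 545 members in the IDR list against distance of the summit downstream of the TSS, both on log scales, with colours for the gene part at the summit and open circles for the 7-mer within 100 bp. In this list signal showed no steady order with distance, and 9 of the 12 members ranked 1 to 200 carried the 7-mer, 7 of them near the TSS and 2 in introns beyond 400 bp.

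Host genes with a downstream summit more often had several TSSs. Of the 531 genes, 51.6% had more than 1 TSS, against 40.6% of genes with an upstream stand-alone summit, 40.0% with a head-to-head summit and 26.5% of all protein-coding genes. In replicates 1, 2 and 3 the difference from upstream genes was 8.12, 1.91 and 4.24 percentage points, a mean of 4.75 ± 3.14 (SD, n = 3; exact sign-flip p = 0.25). A gene with several TSSs offers more stretches just downstream of a TSS, so the position rule can itself raise this share. Its part in the difference was not tested. The median host gene was 3610 bp long, against 4107 bp for upstream stand-alone genes, and the differences were -1092, -854 and -658 bp in replicates 1, 2 and 3 (exact sign-flip p = 0.25). Genes of members 101 to 500 bp downstream had a median length of 5831 bp, a median first intron of 1482 bp and several TSSs in 74.6%. For members 1 to 100 bp downstream the values were 3068 bp, 188 bp and 45.6%. Of the 123 members beyond 100 bp, 61 were intronic, so the structure of their genes is partly tied to position. Genes with upstream summits were not split by distance.

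Part of the members also sat upstream of another TSS. The nearest TSS was the most upstream of its gene for 395 members, or 72.5%. A further TSS of the same gene lay within 500 bp downstream of the summit for 97 members, or 17.8%. The summit was at most 500 bp upstream of a TSS of another protein-coding gene for 128, or 23.5%. The same counts were not made for other promoter summits, so these shares have no base rate. Another IDR summit lay upstream of the same TSS, within 500 bp, for 94 members, or 17.2%. Of the 2235 upstream stand-alone summits, 43, or 1.92%, had a partner on the downstream side. Stand-alone summits were 2235 upstream and 545 downstream, so the base rates differ and the 17.2% and 1.92% do not compare like with like. None of these arrangements applied to 184 members, or 33.8%.

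The share of members with a head-to-head neighbour was near that of all protein-coding TSSs, although the rule left out summits between paired TSSs. An oppositely oriented protein-coding TSS lay within 1000 bp upstream of the member's own TSS for 196 members, or 36.0%. The share was 31.3% over all protein-coding TSS positions, with or without a summit. At the 196 members the summit had passed the TSS by a median of 27.5 bp. Such a neighbour was found for 40.1% of members 1 to 50 bp from the TSS and for 22% of those beyond 100 bp. Of the 12 members ranked 1 to 200, 8 had one, and 108 of the 200 IDR peaks at these ranks were themselves head-to-head summits. The side of the TSS was repeated in all 3 replicates for 38.3% of members with such a neighbour and for 50.4% of those without, whose median distance from the TSS was larger, at 40.0 bp. Within 1 to 50 bp it was 25% for members with a neighbour and 24.6% for all members.

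Taken over all distances, the DRE and motif 1 were about as frequent near members as near upstream summits. The DRE was within 100 bp of 14.5% of members, 12.4% of upstream stand-alone summits, 15.1% of head-to-head summits and 5.71% of all protein-coding TSS positions. Motif 1 was near 11%, 10.8%, 10.6% and 5.33% of the same sets. The difference from upstream summits over the replicates was -0.524 ± 1.75 percentage points for the DRE (SD, n = 3; exact sign-flip p = 0.750) and 1.56 ± 1.29 for motif 1 (SD, n = 3; exact sign-flip p = 0.25), so the DRE difference was smaller than its spread. In the IDR list the motif 1 difference was 0.226 percentage points, and its sign changed under 10 of 13 other settings. Motifs were searched on both strands, DRE sites can overlap the shorter CGATA of BEAF-32, and a match is a description of the letters only.

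The motif content of members varied with distance from the TSS. The DRE was near 19.1% of members at 1 to 25 bp and 24.0% at 26 to 50 bp, but near 2 of 52 at 101 to 200 bp and 1 of 71 at 201 to 500 bp. Motif 1 was near 14.2% and 14.4% of members in the first 2 bands and near 1 of 52 and 1 of 71 in the last 2. The upstream side showed the same decline for the DRE, with 22.1% at 1 to 25 bp and 1.76% at 201 to 500 bp. Of IDR summits over 500 bp from a TSS, 1.22% had a DRE and 0.719% motif 1 nearby. The DRE sites were mostly upstream of the TSS even where the summit was downstream: for the 79 members with a DRE, the site closest to the summit was upstream of the start in 52 and downstream in 27.

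The TATA box and base composition differed between windows at members and at upstream summits, whose median positions were 34 and -94 bp from the TSS. TATAAA was within 100 bp of 26.6% of members, against 32.3% of upstream stand-alone and 39.7% of head-to-head summits, with replicate differences from upstream of -7.11, -12.0 and -6.41 percentage points, a mean of -8.50 ± 3.03 (SD, n = 3; exact sign-flip p = 0.25). The median GC content of the windows was 39.8% at members, 35.8% at upstream stand-alone summits and 34.3% at head-to-head summits, and it was higher downstream in each replicate, by 5.14 ± 0.760 percentage points over upstream summits (SD, n = 3; exact sign-flip p = 0.25). Windows centred 34 bp downstream of all protein-coding TSS positions held TATAAA in 25.7% and had a median GC content of 43.3%. At 1 to 25 bp from the TSS, the median GC content was 40.3% downstream and 39.3% upstream. At 101 to 200 bp it was 37.8% and 33.8%. The parts of base composition and of window position in these differences were not tested. At the TSS itself, an initiator was found for 26 of 543 member TSSs, or 4.79%, against 6.69% of upstream stand-alone, 2.17% of head-to-head and 8.23% of all TSS positions, and a TATA box in its usual place for 1.47%, 2.08%, 1.48% and 6.43% of the same sets.

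Among members, the 7-mer and the DRE were spread differently over the ranks, with only 12 members at ranks 1 to 200. Of these 12, 9 had the 7-mer and none had a DRE, whereas at ranks 749 to 2500, 2 of 63 had the 7-mer and 15 of 63, or 23.8%, had a DRE. At ranks 1 to 200 the DRE was near 10 of 59 upstream stand-alone summits, or 16.9%, and 10 of 108 head-to-head summits, or 9.26%. At ranks 5001 to 7477 the DRE was near 10.9% of 256 members. The E-box CAGCTG was near 17.8% of members, 14.9% of upstream stand-alone and 13.5% of head-to-head summits, with a mean difference from upstream of 2.09 ± 1.3 percentage points over the replicates (SD, n = 3; exact sign-flip p = 0.25). It was near 4 of the 12 strongest members, namely mrva, stwl, GCC88 and Amun. Among the other classes at ranks 1 to 200 it was near 21 of 59 upstream stand-alone summits, or 35.6%, and 19 of 108 head-to-head summits, or 17.6%.

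Of 26 gene lists, the cytoplasmic ribosomal protein genes gave the most members. Of 93 genes 13 had a downstream summit, or 14.0%, against 3.80% of all protein-coding genes, and they were 17.8% of the 73 with any promoter summit, against 12.5% over all genes. In replicates 1, 2 and 3 the number was 6, 25 and 20, a spread larger than that of any other list. The 13 summits were weak and close to the TSS, 1 to 56 bp downstream, led by RpL24 (signal 457.4), RpL3 (322.5), RpL39 (276.0) and RpL27A (231.8). Mitochondrial ribosomal protein genes had 3 of 75, or 4.0%, led by mRpL12 with a signal of 497.2. Respiratory chain and ATP synthase genes had 3 of 87, or 3.45%, and the proteasome list 1 of 48.

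Among genes with any promoter summit, shares were larger in the spliceosome and nuclear receptor lists, but of fewer genes. The spliceosome list had 5 of 30 genes, or 16.7%, and 21.7% of its 23 genes with any promoter summit, namely Prp38 (694.5), B52 (284.4), tra2 (257.2), Prp4k (235.5) and Sf3b3 (200.5), and the replicates gave 6, 5 and 5. RNA-binding and translational control genes had 3 of 33, Hrb98DE, Hrb27C and brat, and chromatin regulators 2 of 38, ph-p (1793) and dom (322.1). Of the genes with any promoter summit these were 15.8% of 19 and 7.41% of 27. Insulator and promoter proteins had 2 of 17, dwg (220.7) and Zif (188.0), both ZAD zinc finger genes. They were 16.7% of the 12 genes of that list with any promoter summit. The nuclear receptor and ecdysone list had 3 of 27, or 11.1%, and 30% of its 10 genes with any promoter summit, with Eip75B (639.6), Hr78 (434.0) and Eip63E (241.7), a cyclin-dependent kinase gene, and 3 in each replicate. At Eip75B, whose product is an ecdysone-induced nuclear receptor, the summit was 20 bp downstream, and 23, 102 and 10 bp in the replicates.

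Among genes with any promoter summit, the cell cycle, DNA replication and traffic lists were near or below the 12.5% over all genes. The cytoskeleton and junction list had 5 of 46, or 10.9%, and 17.9% of its 28 genes with any promoter summit, with sub (6190) far above sqh (286.4), the myosin regulatory light chain, chic (236.1), the fly profilin, p120ctn (230.7) and dlg1 (166.4). Cell cycle genes had 4 of 43, or 9.30%, and 12.5% of the 32 with any promoter summit. They were CycT (395.7), Dp (361.3), stg (185.6) and CycK (173.6), of which CycT and CycK encode cyclins of transcriptional kinases and stg the mitotic Cdc25 phosphatase. At Dp, the partner of E2F, the summit was 392 bp downstream in an intron, and 426, 420 and 395 bp in the replicates. Small GTPase and vesicle traffic genes had 5 of 85, or 5.88%, led by Vps20 (361.0) and shi, the fly dynamin (338.5). The DNA replication list had 1 of 29, Sld5 (157.5).

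Lists of developmental genes held 0 to 2 members each, at shares of 0 to 6.25%, beside 3.80% of all protein-coding genes. The segmentation and homeobox lists also held few genes with any promoter summit. Segmentation genes had 1 of 27, cnc (239.6, 354 bp downstream), Hox and homeobox genes 1 of 42, lab (168.9, 263 bp downstream), and the Notch, Hedgehog, Wnt and BMP list 1 of 43, Su(H) (301.5, 2 bp downstream). Of the genes with any promoter summit these were 1 of 7, 1 of 9 and 1 of 26, against 12.5% over all genes. The EGFR, JAK/STAT and Ras list had 2 of 32, or 6.25%, aop (189.9) and Stat92E (147.8). The neuronal adhesion list had 2 of 90, or 2.22%, Fas2 (224.6) and side-V (208.3). The germline list had 1 of 23, or 4.35%, bgcn (321.4). Neural bHLH and Enhancer of split genes had 0 of 29, meiotic recombination 0 of 25, cuticle proteins 0 of 117 and chemoreceptors with odorant-binding proteins 0 of 230. Any promoter summit was found at 7, 6, 0 and 1 genes of these 4 lists, so the last 2 could hardly have held a member. The remaining lists had 2 of 33 for aminoacyl-tRNA synthetases and 1 each of 25 for the insulin, TOR and Hippo pathways (Rheb, 200.4) and of 36 for heat shock proteins and chaperones (CCT3, 251.1). In all, 62 of 1398 listed genes had a member, beside 531 of 13968 protein-coding genes, or 3.80%. No list was tested, and apart from the cytoplasmic ribosomal proteins no list had more than 5 members.

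Members were spread over the chromosomes. There were 99 on 2L, 124 on 2R, 115 on 3L, 112 on 3R, 90 on X and 5 on chromosome 4, and their share of promoter summits ran from 9.67% to 14.7%. The 5 on chromosome 4, which is small and largely heterochromatic, were CaMKII (5 bp downstream, signal 198.8), Zip102B (53 bp, 194.7), Dyrk3 (2 bp, 179.5), Cals (73 bp, 162.9) and Hcf (165 bp, 158.7), all in UTR exons. All 5 were in the weaker part of the list. The Hcf summits found were 201 and 216 bp downstream in replicates 1 and 3, and those of Dyrk3 lay at -87, -80 and 64 bp in the 3 replicates.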

How the data were processed

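ChIP-seq peak lists of 3 biological replicates were used. Per the deposited file lists, peaks were called on dm6 for each library and for the pooled alignments against a control, which was not analysed here, and the IDR list drew on all of these. An aligner, a caller and the IDR filter's settings were not given in the sources used here. Each deposited list gives a signal value per peak, in units of the authors' own list, and a −log10 q-value, which is tied over the IDR list and was not used. Peak starts, ends and summit offsets are the authors' positions, printed counting from 1.

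Summits were assigned to the nearest of 19276 protein-coding TSS positions (Ensembl release 115, BDGP6.54) with Python 3.11.15, numpy 2.4.6 and pandas 2.3.3. Sequences were read from the RefSeq dm6 genome. Replicate lists were cut to their 7477 strongest peaks for class comparisons, and summits matched within 100 bp. Motifs (18, plus the 7-mer) were searched within 100 bp of summits. Of 531 gene list entries 17 were not matched. Class assignment and matching were tested on simulated summits. The members and lists were chosen with earlier results of these data known. Genes named are those of the 20 strongest members, the 5 nearest to and the 5 farthest from the TSS, up to 4 per list by signal, and those on chromosome 4, with a few others named as neighbours or to complete a short list. Alternatives are described in the closing section. Read depth is unknown, so no counting interval is given.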

Additional observations from a re-analysis of the deposited data

How the results depend on the processing

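The number and share of members, their strength and width relative to upstream stand-alone summits, their intronic share, the DRE and motif 1 differences, recovery in the replicates and the listed genes were recomputed under other settings, of which 61 of 97 values stayed within the spread of the replicates, or within 1.5 times for counts, and 36 moved. Classes of peaks were compared within each replicate throughout. No paired analysis between groups of samples was possible because all samples form 1 group. With summits from 51 bp downstream only, there were 216 members (4.95% of promoter summits), a strength difference of -17.7 percentile points, 31.5% in introns, a DRE difference of -7.35 percentage points and 20 listed genes. In the strongest 50% of the IDR list these were 177 members (6.65%), -5.98 points and 22 listed genes, with a width difference of 38 bp. With only the most upstream TSS of each gene the share was 18.3%, the strength difference -7.73 points and the listed genes 101. With a window of 1000 bp the strength difference was -15.6 points, the intronic share 32.2% and the DRE difference -0.859 points, and with 250 bp the intronic share was 4.97%. With divergent pairs up to 500 bp left out the strength difference was -17.1 points, and with non-coding TSSs added the intronic share was 10.5%. A flank of 50 bp gave a DRE difference of -0.839 points, so its sign was not stable, and it changed under 3 of 13 settings. The motif 1 difference changed sign under 10 of 13 settings, with values of -4.76 to 2.11 points against 0.226 as reported. Recovery in all 3 replicates was 47.0% within 50 bp, 94.7% within 200 bp and 51.6% among the strongest peaks. Each replicate was left out in turn by keeping only the IDR summits matched within 100 bp in the strongest peaks of both others. The IDR list itself still drew on all 3, so this was a filter on recovery, which keeps fewer peaks. It left 318 to 373 members, with a strength difference of -17.8 to -13.6 points and a width difference of 75.5 to 90.5 bp. The fewest members, 318, remained without replicate 3, and 332 without replicate 2. The mean over replicates 2 and 3 alone, added after the data were seen, was 891 downstream summits. The cause of these shifts was not tested. The strength difference stayed negative under every setting run.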

Other observations

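Among members 201 to 500 bp downstream, 6 of 71, or 8.45%, held TGCATAC, the core of the Su(Hw) site, within 100 bp of the summit. The share was 2.57% of all members, 2.64% of upstream stand-alone summits and 4.42% of IDR summits over 500 bp from a TSS. None of the 52 members at 101 to 200 bp held it. GAGAGAG was near 3.30% of members, 4.25% of upstream stand-alone summits and 1.31% of head-to-head summits, with differences from upstream of -1.64, -2.98 and -1.64 percentage points in replicates 1, 2 and 3, a mean of -2.08 ± 0.778 (SD, n = 3; exact sign-flip p = 0.25, the smallest possible). The distance bands were chosen after the data were seen, and the TGCATAC counts by band were not tested.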
